A study of Caenorhabditis elegans with 20 samples.

Results

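Day 1 adult Caenorhabditis elegans that express granulin 1 in a progranulin null background (strain AWK33, pgrn-1(-); granulin 1(+)) were compared with the null strain itself (CF3050, pgrn-1(-)). The comparison used the 4 libraries of each strain, 8 of the 20 in the series, taken by their strain label. The labels conflict here, because another label field names all 3 granulin strains AWK33, and the strain field was followed for every granulin value. The other 12 libraries came from the wild type N2 and from null strains that express granulin 2 (AWK43) or granulin 3 (AWK107), and their values are set beside those of the compared strains. Total RNA of animals synchronised by egg lay was sequenced after a stranded total RNA library preparation. Both compared strains lack progranulin, so the comparison asks what differs when 1 granulin is present and the full-length precursor is not. Granulin 1 is carried by 1 strain, and the labels name no promoter, copy number or insertion site for its transgene. An effect of granulin 1 and any other difference between the 2 strains therefore cannot be told apart. Letters in the sample names run from A to D in granulin 1 and from E to H in the null. Their meaning is not stated, and whatever they stand for cannot be told apart from the strains either. No label states that replicate libraries are from separate cultures, so each p-value reflects library-to-library spread that may be purely technical.

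Progranulin is a secreted glycoprotein that is also delivered to lysosomes, where proteases cut it into individual granulins, small cysteine-rich peptides. In humans, loss of progranulin causes frontotemporal dementia and, when both copies are lost, a lysosomal storage disease. Lysosomal protease activity and HLH-30, the worm counterpart of the lysosomal regulator TFEB, have been studied as readouts of granulins in C. elegans. Gene lists for lysosomes, autophagy, protein turnover and other roles were therefore read alongside the single genes.

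Reads per library ranged from 48951123 to 63655561 for granulin 1 and from 51870116 to 64353087 for the null. Granulin 1 replicate 3 stood apart from the other 3 libraries of its strain. Its rRNA share was 25.9% of reads against 0.919% to 3.45% in the others. The slope of gene level on transcript length was -0.77 log2 units per doubling of length there and 0.07 to 0.13 in the other granulin 1 libraries. In the null, replicate 2 had 14.5% rRNA reads against 4.8% to 6.51% in the other 3 libraries. Null replicate 1 had a slope of -0.25, against 0.11 to 0.17 in the other null libraries. Of 15737 genes tested, replicate 3 was the highest granulin 1 library for 43.1% and the lowest for 41%. Values without it are given beside the results that depend on it.

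Of the 15737 genes tested with limma, 74 passed an adjusted p of 0.05, which is 0.47% of genes. Of these, 68 rose in granulin 1 (0.432%) and 6 fell (0.0381%). An unadjusted p under 0.05 was found for 1176 genes (7.47%). The libraries of the 2 strains did not overlap for any of the 74, while 716 of all tested genes (4.55%) showed no overlap. The median log2 fold change over all genes was 0.04, and 8293 of the 15737 were positive. Counts of positive genes given below include granulin 1 replicate 3. Among the 68 genes that rose, that library was the highest granulin 1 library for 41 (60.3%) and the lowest for 14 (20.6%). Over all tested genes these shares were 43.1% and 41%. The genes that rose had a median log2 fold change of 2.36, with 1.28 as the smallest. The count depends on the fit: it was 26 with the 2 strains fitted alone, 42 without null replicate 2, and 667 with library weights, where 435 rose and 232 fell. In the fit of all 20 libraries, 0.324% of genes passed for granulin 1 minus wild type, 18.9% for granulin 1 minus granulin 2, 5.58% for granulin 1 minus granulin 3 and 0.197% for the null minus wild type.

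**Figure D1:**
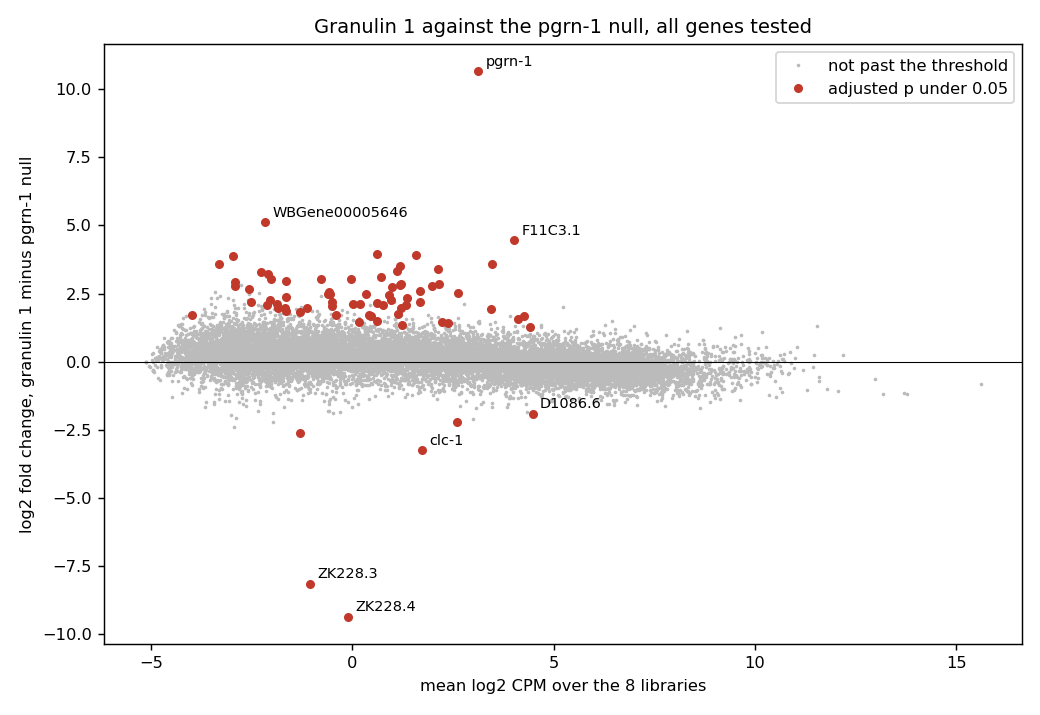
Log2 fold change of granulin 1 minus the pgrn-1 null (vertical axis) against the mean log2 CPM over the 8 libraries (horizontal axis), 1 point per gene tested. Red points are the 74 genes with an adjusted p under 0.05, of which 68 lie above 0 and 6 below, and pgrn-1, ZK228.3 and ZK228.4 lie farthest from 0.

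The deleted and re-expressed gene was read first. pgrn-1 (WBGene00011936), which encodes progranulin and lies at chrI:11701631-11703698 of ce11, had 32, 10, 8 and 6 reads in null replicates 1 to 4. Granulin 1 replicates 1 to 4 had 13591, 18258, 57202 and 13775 reads. The strains did not overlap, and replicate 3 was by far the highest granulin 1 library. In CPM, reads scaled to a common library size, the level was 443 ± 395 (SD, n = 4) in granulin 1 and 0.206 ± 0.11 (SD, n = 4) in the null. The log2 fold change was 10.66 ± 0.47 (SE, adjusted p = 7.33e-12), and 10.14 without replicate 3. Wild-type libraries lay in between, at 18.8 ± 12.2 CPM (SD, n = 4), and the difference of granulin 1 from them was 4.41 ± 0.47 on the log2 scale (SE, adjusted p = 1.97e-05). The gene had 200 ± 60.3 CPM (SD, n = 4) in granulin 2 and 348 ± 68.3 CPM (SD, n = 4) in granulin 3. Reads are counted over the whole gene in these tables, so they do not show which granulin domain they cover.

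sri-12 (WBGene00005524, chrI:11699169-11701178), a serpentine receptor class I gene, ends 452 bp before pgrn-1. It had 0 reads in all 4 null libraries and 19, 25, 23 and 12 in granulin 1. Wild-type libraries had 0, 1, 0 and 2 reads, granulin 2 had 50, 121, 70 and 59, and granulin 3 had 29, 94, 20 and 118. The gene was thus near 0 in both strains without a granulin transgene and detected in every library of the 3 strains with one. The log2 fold change over the null was 3.60 ± 0.45 (SE, adjusted p = 9.91e-05). Against a floor of 3 reads per null library the difference was at least 6.43-fold. The other genes beside pgrn-1 that were examined, sri-11, T22H2.4 and oac-19, did not pass the test.

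unc-119, a neuronal gene often used as a rescue marker in worm transgenes, had 582, 783, 619 and 453 reads in granulin 1 and 865, 432, 538 and 502 in the null. The libraries overlapped, and the log2 fold change was 0.09 ± 0.24 (SE, adjusted p = 0.94). In granulin 2 the gene had 32.3 ± 4.34 CPM (SD, n = 4) and in granulin 3 it had 49.9 ± 4.57 CPM (SD, n = 4), against 10.2 ± 2.11 CPM (SD, n = 4) in granulin 1. The granulin 1 level was lower than that of granulin 2 by a log2 difference of -1.68 ± 0.24 (SE, adjusted p = 4.29e-05) and lower than that of granulin 3 by -2.31 ± 0.24 (SE, adjusted p = 6.12e-06).

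A protein-coding gene, F11C3.1 (WBGene00008695, chrI:14867924-14871365), and a pseudogene, WBGene00005646 (chrV:7382021-7383309), were high in granulin 1 against every other strain. F11C3.1 had 3741, 4371, 6230 and 4171 reads in granulin 1 and 350, 158, 154 and 208 in the null. Its level was 78.0 ± 23.2 CPM (SD, n = 4) in granulin 1 and 3.43 ± 0.345 CPM (SD, n = 4) in the null, with no overlap. This was a log2 fold change of 4.46 ± 0.27 (SE, adjusted p = 1.29e-09), and 4.27 without replicate 3. The means of wild type, granulin 2 and granulin 3 were 3.21, 2.87 and 2.84 CPM, close to that of the null. Granulin 1 minus these strains gave log2 differences of 4.55 ± 0.27, 4.75 ± 0.27 and 4.76 ± 0.27 (SE), with adjusted p of 8.88e-10, 3.98e-10 and 7.53e-10.

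F11C3.1 lies between muscle and other genes near the end of chromosome I. unc-54, which encodes the major body wall muscle myosin and lies 4441 bp from it, had a log2 fold change of 0.03 ± 0.81 (SE, adjusted p = 0.995). unc-122, 746 bp away on the other side, had 1.17 ± 0.52 (SE, adjusted p = 0.636). aex-5 (chrI:14850052-14855827), a proprotein convertase gene that acts in the defecation cycle, lies 12096 bp away, beyond unc-54 (chrI:14855901-14863482), and rose. It had 1218, 1448, 3569 and 1604 reads in granulin 1 and 975, 448, 456 and 695 in the null. The difference on the log2 scale was 1.55 ± 0.32 (SE, adjusted p = 0.0233), and 1.17 without replicate 3, which was far above the other 3 granulin 1 libraries. The call was kept in 4 of 8 fits that left out 1 library, and aex-5 overlaps str-245 and maph-1.1 in the annotation. Unlike F11C3.1, aex-5 was not high in granulin 1 alone. Its means were 33.4 CPM in granulin 1, 36.9 in granulin 2, 19.5 in granulin 3 and 10.2 in the null. Granulin 2 exceeded the null by 1.85 ± 0.32 on the log2 scale (SE, adjusted p = 0.000163). Granulin 3 did not pass (0.91 ± 0.32 (SE), adjusted p = 0.0656).

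WBGene00005646 had 36, 50, 163 and 118 reads in granulin 1 and 1, 0, 0 and 2 in the null. Wild type had 0, 2, 0 and 1, granulin 2 had 0, 3, 1 and 1, and granulin 3 had 0, 0, 0 and 3. No library outside granulin 1 thus held more than 3 reads of it. It passed the filter on low values only through the granulin 1 libraries, where it is high, so its test had to find a difference and is not used as support. The fitted log2 fold change over the null was 5.13 ± 0.49 (SE). Summed over the 4 libraries of each strain, 367 reads stood against 3, a ratio of 127 with a 95% interval of 43 to 616 that covers counting error only.

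**Figure D2:**
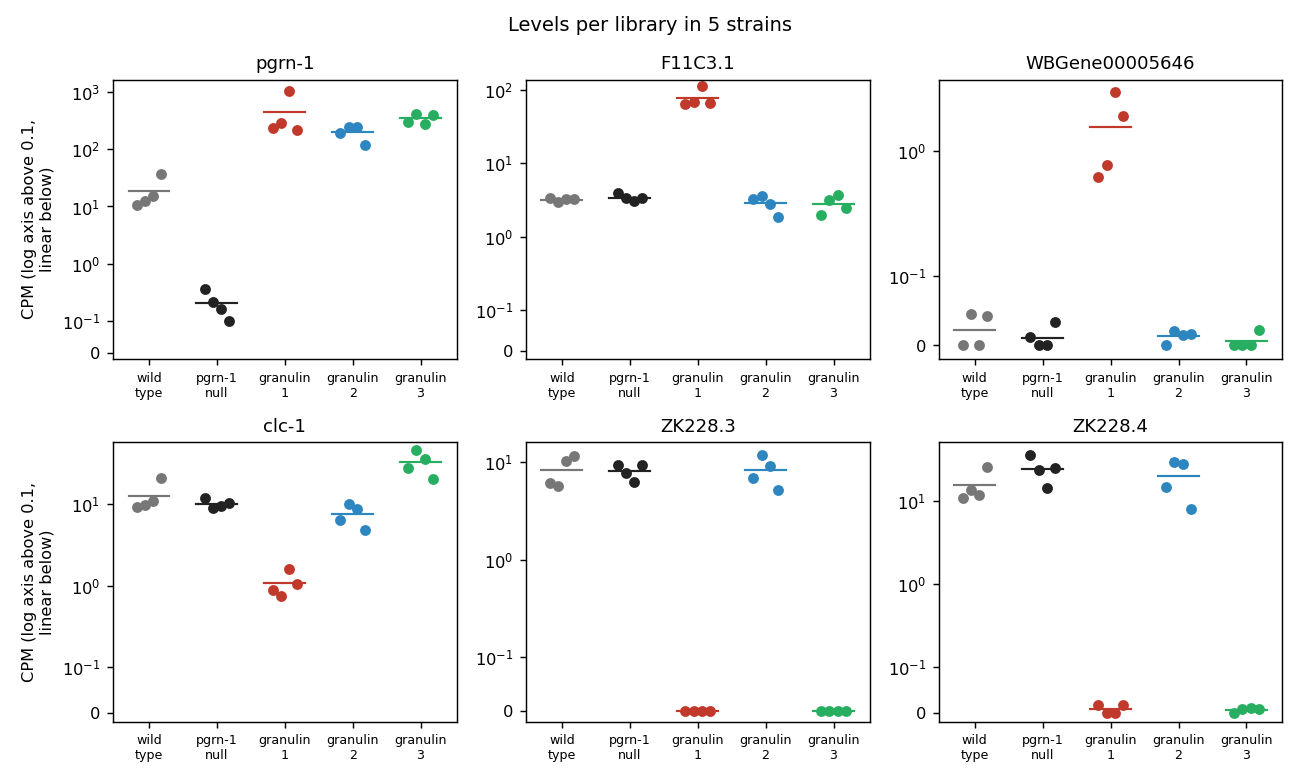
CPM of 6 genes in each library of the 5 strains (vertical axis, logarithmic above 0.1 and linear below), with a line at each strain's mean of 4 libraries. F11C3.1 and WBGene00005646 are high and clc-1 is low in granulin 1 against every other strain, and ZK228.3 and ZK228.4 are at or near 0 in granulin 1 and granulin 3.

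The 2 genes with the largest fall were ZK228.3 (chrV:18458241-18461250) and ZK228.4 (chrV:18462787-18465426), neighbours on chromosome V that are 1536 bp apart. ZK228.3 had 0 reads in every granulin 1 library and 852, 366, 318 and 574 in the null. The log2 fold change was -8.16 ± 0.31 (SE, adjusted p = 7.59e-13), and the level was at least 164-fold lower at a floor of 3 reads per library. ZK228.4 had 1, 0, 0 and 1 reads in granulin 1 and 3248, 1118, 727 and 1530 in the null. Granulin 1 minus null gave a log2 difference of -9.36 ± 0.40 (SE, adjusted p = 5.55e-12), and the null held 3202 times the granulin 1 level, with a 95% counting interval of 886 to 26445. Granulin 3 showed the same pattern, with 0 reads of ZK228.3 in its 4 libraries and 0, 1, 1 and 1 reads of ZK228.4. Wild type had 257 to 507 reads of ZK228.3 and granulin 2 had 309 to 1757, so reads were at or near 0 in granulin 1 and granulin 3 and not in the other 3 strains. ZK262.8, ZK262.9 and ZK228.1, which lie nearby, also had 0 reads in every granulin 1 and granulin 3 library. No null library held more than 2, 3 and 0 reads of them, too few for a fall to show. Granulin 2 libraries held 39 to 92, 43 to 93 and 3 to 29.

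clc-1 (chrX:11047446-11049275) encodes a claudin-like protein of epithelial cell junctions. It had 52, 48, 90 and 66 reads in granulin 1 and 1080, 424, 473 and 635 in the null, with no overlap. The level was 1.08 ± 0.386 CPM (SD, n = 4) against 10.2 ± 1.34 CPM (SD, n = 4). The log2 fold change was -3.26 ± 0.33 (SE, adjusted p = 6.16e-06), and -3.47 without replicate 3. Granulin 1 was the lowest of the 5 strains: clc-1 was lower by -3.50 ± 0.33 against wild type (adjusted p = 2.91e-06), -2.77 ± 0.33 against granulin 2 (adjusted p = 9.19e-06) and -4.87 ± 0.33 against granulin 3 (adjusted p = 1.47e-08), all as log2 differences with their SE. No other of the 30 tested claudin-like and junction genes passed the test. The list had a median log2 fold change of -0.22, with 11 of 30 positive.

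The other 3 genes that fell depended more on single libraries. Of 8 fits that left out 1 library, D1086.6 was called in 3, and F42A10.9 and WBGene00045062 in 1 each. D1086.6 had 9.99, 9.07, 28.5 and 6.63 CPM in granulin 1 and 71.2, 41.6, 35 and 34 CPM in the null. Its log2 fold change was -1.92 ± 0.39 (SE, adjusted p = 0.0222), and -2.36 without replicate 3, the highest granulin 1 library. It was also lower than in wild type, by -2.23 ± 0.39 on the log2 scale (SE, adjusted p = 0.0104). F42A10.9, which overlaps efk-1 and nfm-1, had a log2 fold change of -2.22 ± 0.47 (SE, adjusted p = 0.0308), and -2.76 without replicate 3. The pseudogene WBGene00045062 had 8, 12, 1 and 25 reads in granulin 1 and 96, 40, 36 and 85 in the null. The change on the log2 scale was -2.62 ± 0.58 (SE, adjusted p = 0.0465), and without replicate 3 it was -2.02 and did not pass (adjusted p = 0.144).

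Genes of the F-box, MATH and BTB, and Skp1-related families were among those that rose. F-box proteins pick substrates for SCF ligases, to which they bind through Skp1, and proteins with a BTB domain do so for cullin-3 ligases. MATH genes, with or without a BTB domain, were read in 1 list with the BTB genes. Of 212 F-box genes tested, 5 rose and none fell (2.36%), where 0.432% of all tested genes rose. Of 74 MATH and BTB genes, 3 rose and none fell (4.05%). Of 19 Skp1-related genes, 1 rose. The lists were chosen with earlier results of these data known and their members are multigene families, in which reads that match several copies can be split or dropped in counting. The median log2 fold change was 0.34 over the F-box genes and 0.39 over the MATH and BTB genes, against 0.04 over all genes, and without granulin 1 replicate 3 these were 0.16, 0.19 and 0.08. Many called members lie in stretches of chromosomes V and II that are described below. In the stretch on V, 3 of 9 tested F-box, MATH and BTB genes were called, against 20 of all 61 tested genes there. On II it was 3 of 55, against 9 of all 99. The part of position in the family counts was not tested.

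fbxa-192 (chrV:17640672-17650527) had 8.87, 6.76, 5.30 and 6.87 CPM in granulin 1 and 0.789, 0.681, 0.536 and 0.640 CPM in the null. Its log2 fold change was 3.33 ± 0.38 (SE, adjusted p = 3.84e-05). The null was also below wild type, which had 12.1 ± 4.07 CPM (SD, n = 4). The lowest strain mean of this gene was thus that of the null, and granulin 1 did not pass the test against wild type (log2 difference -0.75 ± 0.38 (SE), adjusted p = 0.608).

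fbxa-188 and fbxa-189 lie 287 bp apart on chromosome V, and skr-5, a Skp1-related gene, starts 120 bp after fbxa-189. fbxa-188 had 1.35, 1.26, 3.4 and 1.06 CPM in granulin 1 and 0.389, 0.298, 0.179 and 0.213 CPM in the null, with a log2 fold change of 2.48 ± 0.38 (SE, adjusted p = 0.00126). fbxa-189 had 3.75, 4.63, 10.8 and 3.59 CPM in granulin 1 and 1.45, 1.30, 0.834 and 1.31 CPM in the null. The fitted log2 difference was 2.06 ± 0.34 (SE, adjusted p = 0.00266). skr-5 had 45, 49, 140 and 22 reads in granulin 1 and 16, 4, 3 and 3 in the null, with a log2 fold change of 2.98 ± 0.51 (SE, adjusted p = 0.00435). Replicate 3 was the highest granulin 1 library for all 3 genes, and without it the log2 fold changes were 2.11, 1.70 and 2.47, each past the threshold. The wild-type means of these genes were near those of the null, at 0.355 against 0.27 CPM for fbxa-188 and 1.18 against 1.22 CPM for fbxa-189. skr-5 had 0.0839 ± 0.0599 CPM (SD, n = 4) in wild type and 0.0929 ± 0.0586 CPM (SD, n = 4) in the null, and granulin 1 exceeded wild type by 3.12 ± 0.51 on the log2 scale (SE, adjusted p = 0.00494). The annotation places lsy-27 over skr-5.

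The remaining F-box genes that rose were fbxa-125, with a log2 fold change of 3.21 ± 0.60 (SE, adjusted p = 0.00995), and fbxc-43, with 1.70 ± 0.29 (SE, adjusted p = 0.00461). fbxa-125 had 9, 2, 1 and 3 reads in the null, so its fold rests on few reads. Among the MATH genes, bath-24 had 246, 369, 490 and 418 reads in granulin 1 and 94, 38, 32 and 52 in the null. Its log2 fold change was 2.86 ± 0.30 (SE, adjusted p = 9.90e-06). math-44 rose by 2.77 ± 0.47 (SE, adjusted p = 0.00453) and math-38 by 2.74 ± 0.41 (SE, adjusted p = 0.00106) on the log2 scale. For math-44 replicate 3 was the highest granulin 1 library, at 28.8 CPM, and without it the log2 fold change was 2.27. All 3 MATH genes lie within 475 kb on the left arm of chromosome II. Against wild type, granulin 1 passed for math-38 (adjusted p = 0.0178). It did not pass for fbxa-125, fbxc-43, bath-24 or math-44 (adjusted p = 0.979, 0.671, 0.353 and 0.845). The wild-type means of the latter genes were 0.674, 1.66, 3.72 and 6.94 CPM. Those of the null were 0.0529, 0.728, 0.836 and 1.48 CPM.

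**Figure D3:**
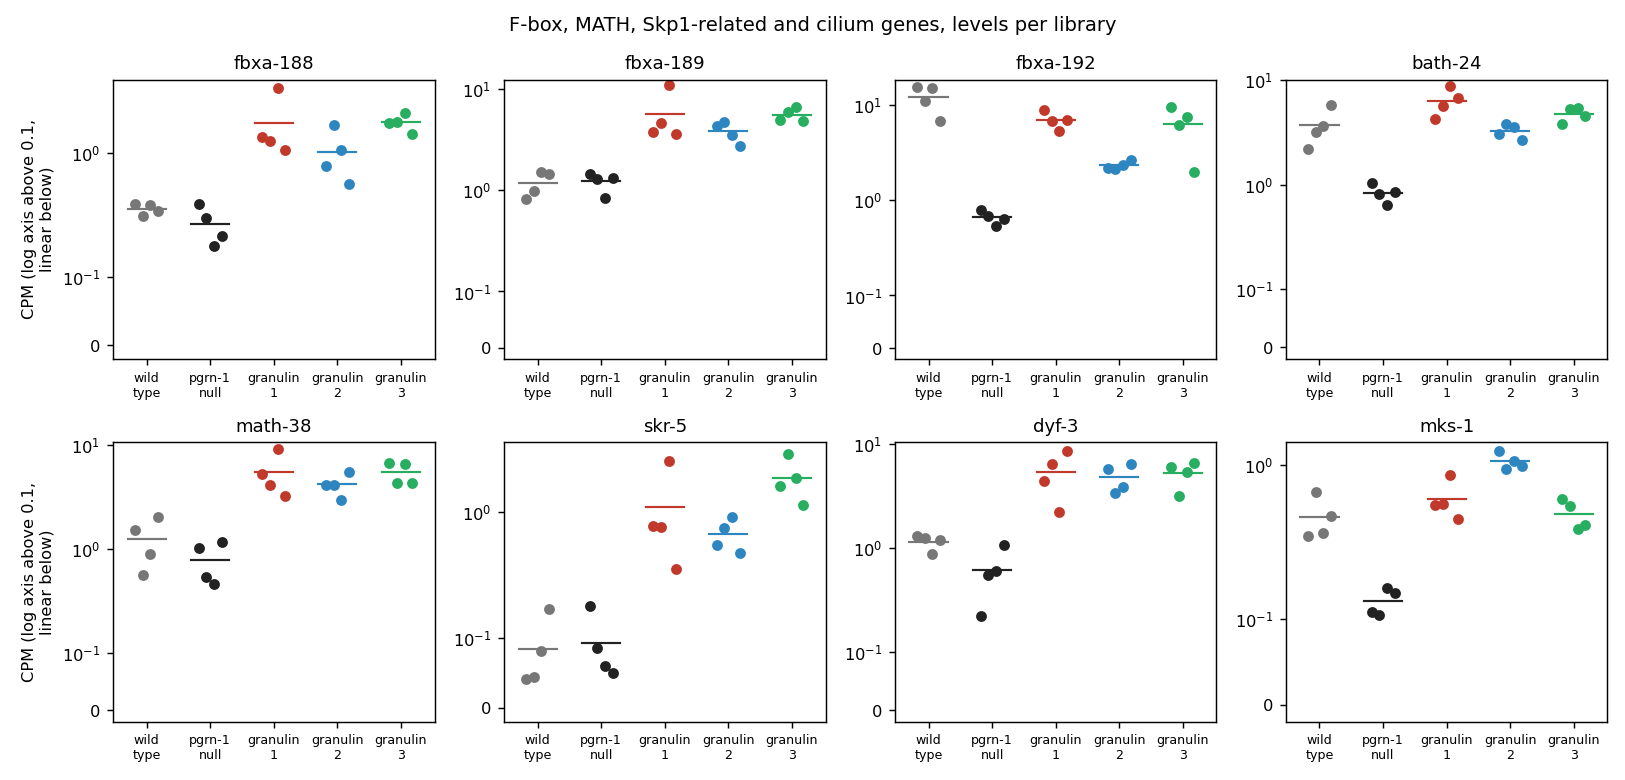
CPM of 8 called genes of the F-box, MATH, Skp1-related and cilium lists in each library of the 5 strains (vertical axis, logarithmic above 0.1 and linear below), with a line at each strain's mean of 4 libraries. Granulin 1 lies above the null in every panel. Wild type lies near the null for fbxa-188, fbxa-189 and skr-5 and well above it for fbxa-192, bath-24 and mks-1.

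Of 48 cilium genes tested, 2 rose and none fell (4.17%), where 0.432% of all tested genes rose. dyf-3, which is required to build sensory cilia, had 4.37, 6.34, 2.21 and 8.59 CPM in granulin 1 and 0.222, 0.553, 0.596 and 1.07 CPM in the null. The mean was 5.38 ± 2.73 CPM (SD, n = 4) against 0.609 ± 0.347 CPM (SD, n = 4), with no overlap. This was a log2 fold change of 3.1 ± 0.43 (SE, adjusted p = 0.000487), and 3.47 without replicate 3. Granulin 2 and granulin 3 had 4.81 and 5.24 CPM, close to granulin 1, and wild type had 1.15 CPM. Granulin 1 exceeded wild type by 2.05 ± 0.43 on the log2 scale (SE, adjusted p = 0.041). mks-1, a gene of the ciliary transition zone, had 32, 36, 48 and 28 reads in granulin 1 and 10, 5, 8 and 9 in the null. Granulin 1 minus null gave a log2 difference of 1.97 ± 0.30 (SE, adjusted p = 0.00127), and wild type, at 0.461 CPM, was not distinguishable from granulin 1 (log2 difference 0.38 ± 0.30 (SE), adjusted p = 0.838). Over the 48 genes the median log2 fold change was 0.25, and 0.23 without replicate 3. Over the fits that left out 1 library that median ran from 0.05 to 0.43. Ciliated neuron markers had a median of 0.52 over 7 tested genes, 6 of them positive, and 0.64 without replicate 3, and dyf-3 was the 1 called member. The 8 markers summed to 3.71 to 10.3 CPM in granulin 1 and 1.53 to 2.61 CPM in the null, with no overlap. Without dyf-3 the sums were 1.5 to 3.12 CPM and 1.31 to 1.54 CPM, which overlap. Their part in the rise of mks-1 was not tested. General neuron markers had a median of 0.09 over 7 genes, with no member called, and -0.01 without replicate 3.

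Most of the genes that rose had low counts in the null. Beside pgrn-1, 67 genes rose, and 48 of them had a mean under 1 CPM in the null. The median of their strain means was 0.609 CPM in the null, 1.25 CPM in wild type and 2.55 CPM in granulin 1. In granulin 2 and granulin 3 it was 2.21 and 2.97 CPM. The genes were chosen by their difference between granulin 1 and the null, so a low null median is part of the choice. Of the 74 called genes, 33 had fewer than 50 reads in every null library.

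Several genes had their lowest strain mean in the null. Y102A5C.36 had 328, 348, 348 and 413 reads in granulin 1 and 40, 19, 10 and 28 in the null, with a log2 fold change of 3.95 ± 0.35 (SE, adjusted p = 1.33e-06). Its means were 5.99 CPM in granulin 1, 3.24 in wild type, 6.72 in granulin 2, 6.79 in granulin 3 and 0.377 in the null. The pseudogene WBGene00014955, which lies beside it, had 43.3, 40.1, 21 and 60.7 CPM in granulin 1 and 2.16, 4.26, 3.95 and 2.82 CPM in the null, and 32 CPM on average in wild type. B0511.11 had 6.94 CPM in granulin 1, 1.5 in the null and 7 in wild type, with a log2 fold change of 2.17 ± 0.38 over the null (SE, adjusted p = 0.00477). elmd-1, which encodes an ELMO domain protein, had 7.91 CPM in granulin 1, 2.81 in the null and 6.95 in wild type. Its log2 fold change over the null was 1.45 ± 0.27 (SE, adjusted p = 0.00995), and it overlaps mlc-4 and hecw-1. For none of these 4 genes did granulin 1 pass the test against wild type. C38D9.2 rose from 0.0447 CPM in the null to 0.400 CPM in granulin 1 (log2 fold change 2.65 ± 0.47 (SE), adjusted p = 0.00572), with 0.339 CPM in wild type (granulin 1 minus wild type 0.30 ± 0.47 (SE), adjusted p = 0.891). Its level in granulin 2 was 296, 92.3, 157 and 525 CPM.

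K10G4.5 and F47H4.2 were low in both the null and wild type. K10G4.5 had 19, 34, 32 and 28 reads in granulin 1, 0, 1, 0 and 0 in the null, and 0 in all 4 wild-type libraries. Granulin 2 had 33, 89, 23 and 27 reads and granulin 3 had 52, 118, 139 and 138, so the gene was detected in the 3 granulin strains. The log2 fold change over the null was 3.90 ± 0.33 (SE, adjusted p = 6.81e-07), and over wild type it was 4.10 ± 0.33 (SE, adjusted p = 2.34e-07). F47H4.2 had 1.48 ± 0.124 CPM (SD, n = 4) in granulin 1, 0.307 ± 0.0809 in the null and 0.322 ± 0.118 in wild type. Its log2 fold change over the null was 2.19 ± 0.30 (SE, adjusted p = 0.000363) and over wild type 2.17 ± 0.30 (SE, adjusted p = 0.000744).

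The other called genes included some that differed between granulin strains. C25G4.7 (chrIV:12456913-12458561) had 267, 197, 86 and 161 reads in granulin 1 and 17, 27, 26 and 10 in the null, a log2 fold change of 3.02 ± 0.48 (SE, adjusted p = 0.0023). Strain means of 13.5 CPM for granulin 2 and 0.808 CPM for granulin 3 lay on either side of the 2.95 CPM of granulin 1. Granulin 1 differed from granulin 2 by -2.20 ± 0.48 (SE, adjusted p = 0.00237) and from granulin 3 by 1.85 ± 0.48 (SE, adjusted p = 0.0275) on the log2 scale. T16H12.2 (chrIII:10086283-10087171) had 367, 447, 321 and 307 reads in granulin 1 and 76, 44, 37 and 49 in the null, and its wild-type mean was 5.27 CPM against 6 CPM in granulin 1. It rose over the null by 2.81 ± 0.31 on the log2 scale (SE, adjusted p = 2.1e-05) and did not pass against wild type (adjusted p = 0.901). C33B4.4 on chromosome II showed a like order of means, with 5.89 CPM in granulin 1, 1.1 in the null, 4.62 in wild type and 12 in granulin 2. The non-coding RNA gene C04G6.15 and its neighbour C04G6.6 rose over the null by log2 fold changes of 2.5 ± 0.34 and 2.27 ± 0.41 (SE, adjusted p = 0.000446 and 0.00698).

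**Figure D4:**
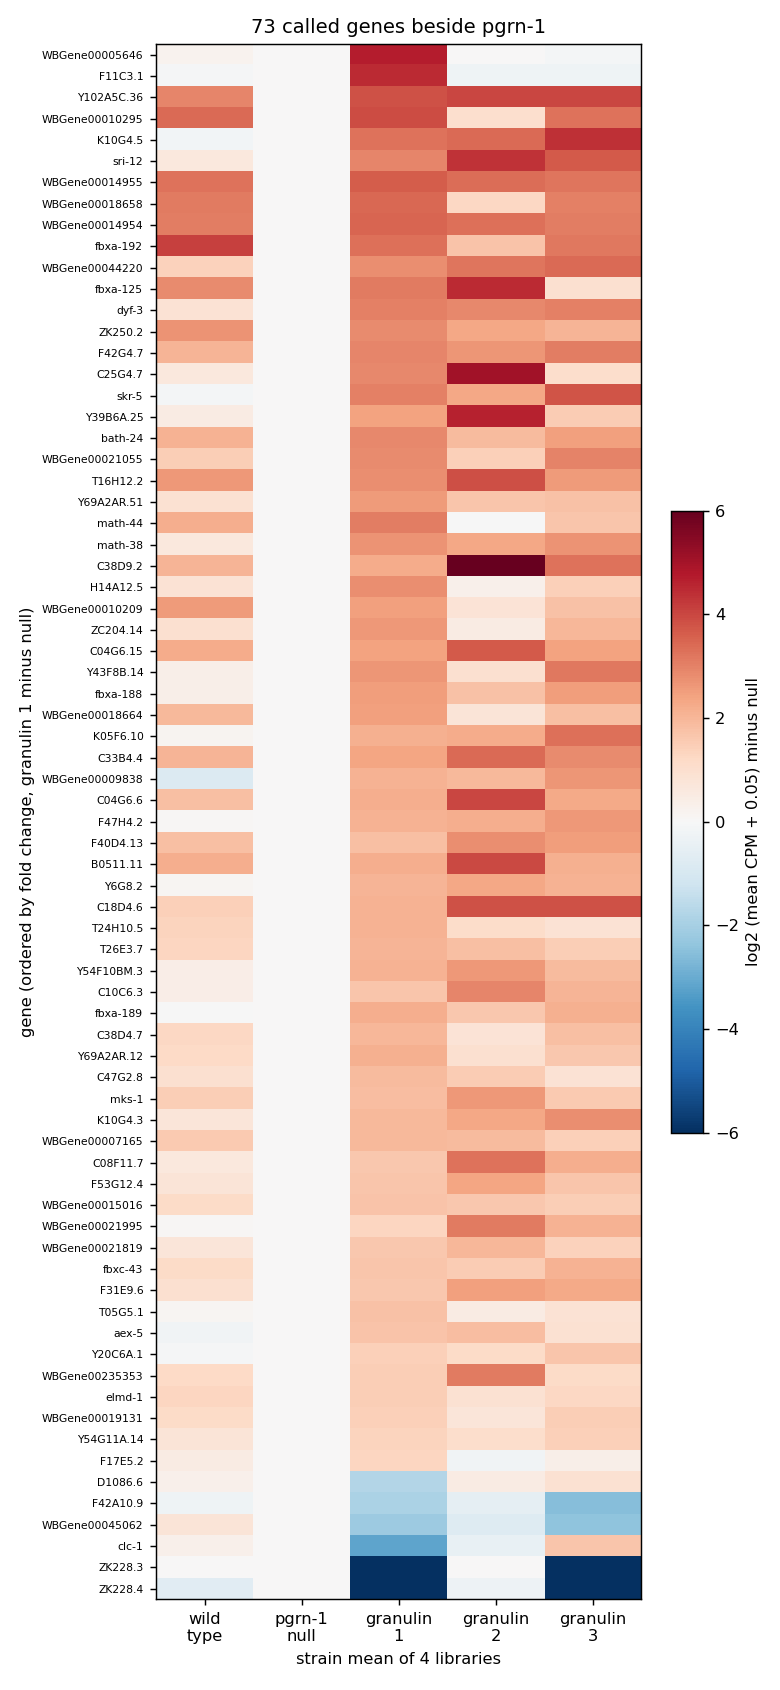
Level of the 73 called genes other than pgrn-1 (rows) in 5 strains (columns), as log2 of the mean CPM plus 0.05 minus the same in the null, so the null column is 0. The colour scale ends at 6 in both directions and C38D9.2 in granulin 2, ZK228.3 and ZK228.4 lie beyond or near its end. Some rows are red in granulin 1 and pale in wild type, and others are red in both.

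Many called genes had a called neighbour. Chromosome V held 27 of them among 3107 tested genes (0.869%) and chromosome II held 19 of 2730 (0.696%), while chromosome X held 2 of 2232 (0.0896%). Of the 74 genes, 44 had another called gene within 100 kb, and in all 44 cases the nearest one moved in the same direction. The matching share for all tested genes was not computed. Since 68 of the 74 calls were higher, a shared direction is likely for any pair of them. A stretch of 730 kb on the right arm of chromosome V (chrV:16924985-17655281) held 20 called genes, all higher in granulin 1, among 61 tested (32.8%). They included fbxa-188, fbxa-189, fbxa-192, skr-5, Y102A5C.36, K10G4.5, F47H4.2 and C38D9.2. Over the 61 genes the median log2 fold change was 1.12, with 53 positive, and 0.96 without replicate 3. A stretch of 475 kb on the left arm of chromosome II (chrII:1574540-2049175) held 9 called genes, all higher, among 99 tested (9.09%). There 81 of 99 genes were positive, with a median of 0.77, and 0.56 without replicate 3. The bounds of both stretches were set after the positions of the called genes were seen, and no test was made on them. The counts and medians include the called genes that set the bounds. Of the 74 genes, 45 lay outside them.

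The same 61 genes on chromosome V had a median log2 difference of 0.82 between granulin 1 and wild type and of -0.04 between the null and wild type. Granulin 2 minus the null gave a median of 1.67 and granulin 3 minus the null 2.11. For the 99 genes on chromosome II the medians were 0.54 for granulin 1 minus wild type, -0.06 for the null minus wild type, 0.60 for granulin 2 minus the null and 0.91 for granulin 3 minus the null. These comparisons share libraries with each other, and their values are given side by side only.

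Pseudogenes were among the calls. Of 584 tested, 17 were called (2.91%), 16 of them higher, against 55 of 14861 protein-coding genes (0.370%). Among those 17, 6 lie in the stretch on chromosome V and 3 in that on chromosome II. Those 17, like the 74, include WBGene00005646, which passed the filter only through the granulin 1 libraries. The largest after WBGene00005646 was WBGene00010295 (chrV:17653482-17655281), with 591, 532, 1029 and 688 reads in granulin 1 and 62, 34, 35 and 53 in the null. Its log2 fold change was 3.90 ± 0.36 (SE, adjusted p = 1.60e-06). WBGene00018658 on chromosome II had 7.86 CPM in granulin 1 and 0.682 CPM in the null, with a log2 fold change of 3.52 ± 0.33 (SE, adjusted p = 1.6e-06). Reads of a pseudogene and of its parent gene can be mistaken for each other, and 15 of the 74 called genes overlap another annotated gene.

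No gene of the lysosome or autophagy lists passed the test, which for lists of 16 to 30 genes is near the 0.47% called among all genes. Of 26 lysosomal proteases, which include the cathepsin-type enzymes that cut progranulin, none was called, and the median log2 fold change was 0.11 with 16 positive. cpr-8 had 8.37, 6.84, 12.4 and 6.58 CPM in granulin 1 and 5.73, 5.60, 3.83 and 5.51 CPM in the null, with no overlap (log2 fold change 0.69 ± 0.25 (SE), adjusted p = 0.511). pcp-2 had a log2 fold change of -0.79 ± 0.32 (SE, adjusted p = 0.579). The 30 other lysosomal hydrolases had a median of 0.11, the 21 vacuolar ATPase genes, which acidify the lysosome, had 0.02, and the 30 lysosomal membrane genes had -0.31. Without replicate 3 these medians were 0.00, -0.02 and -0.03. The 25 autophagy genes had a median of -0.16, with atg-13 at -0.55 ± 0.27 (SE, adjusted p = 0.674). hlh-30 had 49.9, 62.5, 26.0 and 32.2 CPM in granulin 1 and 24.8, 38.6, 31.3 and 35.1 CPM in the null. The libraries overlapped and the log2 fold change was 0.33 ± 0.45 (SE, adjusted p = 0.893). The 16 HLH-30 and TOR regulators had a median of -0.51, which became 0.28 without replicate 3, so its sign rests on 1 library. Without that library the autophagy median was 0.16 and the protease median -0.14, each of the other sign.

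Protein turnover and folding genes also gave no call outside the F-box, MATH and BTB, and Skp1-related lists. For lists of 13 to 81 genes this is near the 0.47% called among all genes. All 33 proteasome subunit genes had a negative log2 fold change, with a median of -0.43 that was -0.11 without replicate 3. rpt-4, an ATPase of the proteasome base, had 148, 135, 42.9 and 301 CPM in granulin 1 and 223, 295, 337 and 262 CPM in the null (log2 fold change -1.12 ± 0.44 (SE), adjusted p = 0.546). The 81 cytosolic ribosomal protein genes had a median of -0.26, and -0.27 without replicate 3. For the 23 endoplasmic reticulum folding genes the median was -0.30, and 0.18 without replicate 3. Heat shock genes of the cytosol had a median of -0.01 over 13 members.

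Among immune and cuticle genes, all 23 tested pals genes, a family known from the intracellular pathogen response, had a positive log2 fold change. None was called, which for 23 genes is near the 0.47% called among all genes, and the median of 0.79 was 0.27 without replicate 3. pals-3 had a log2 fold change of 1.78 ± 0.53 (SE, adjusted p = 0.264). Of 69 immune effector genes 43 were positive, with a median of 0.21, and -0.20 without replicate 3. ilys-2, an invertebrate lysozyme gene, had 4.32, 2.93, 5.14 and 2.05 CPM in granulin 1 and 1.95, 1.32, 0.913 and 1.08 CPM in the null. Its strains did not overlap, yet it did not pass (log2 fold change 1.41 ± 0.35 (SE), adjusted p = 0.097). Of 140 cuticle collagens 116 were positive, with a median of 0.44, and 0.26 without replicate 3. The collagen col-111 had a log2 fold change of 1.37 ± 0.33 (SE, adjusted p = 0.0778).

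Markers of cell types and stages were read to see whether the strains differed in make-up. In bulk samples fewer cells of a type and less RNA per cell cannot be told apart. No member of the sperm, oocyte, embryo, intestine, hypodermis, muscle, larva or male tail lists was called. For lists of 1 to 42 tested genes this is near the 0.47% called among all genes. The ciliated neuron list, described with the cilium genes, held 1 called member of 7. The 12 oocyte and eggshell markers summed to 5409 to 17166 CPM in granulin 1 and 5383 to 19206 CPM in the null, and none was at 0 in all 8 libraries. Their median log2 fold change was -1.06, and 0.39 without replicate 3. All 6 vitellogenins, the yolk proteins made by the adult intestine, had a negative log2 fold change, with a median of -1.13 that was 0.06 without replicate 3. vit-5 had 10367, 15159, 497 and 19156 CPM in granulin 1, where replicate 3 was lowest. Sperm markers summed to 26.2 to 74.4 CPM in granulin 1 and 15 to 52.2 CPM in the null, with 36 of 42 positive and a median of 0.52. That median was 0.70 without granulin 1 replicate 3 and 0.04 without null replicate 2. The sperm genes msp-32 and msp-58 were at 0 in all 8 libraries. The part of these differences in the calls was not tested. Of the 74 calls, 57 were made again without replicate 3, and 37 were made in all 8 fits that left out 1 library.

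**Figure D5:**
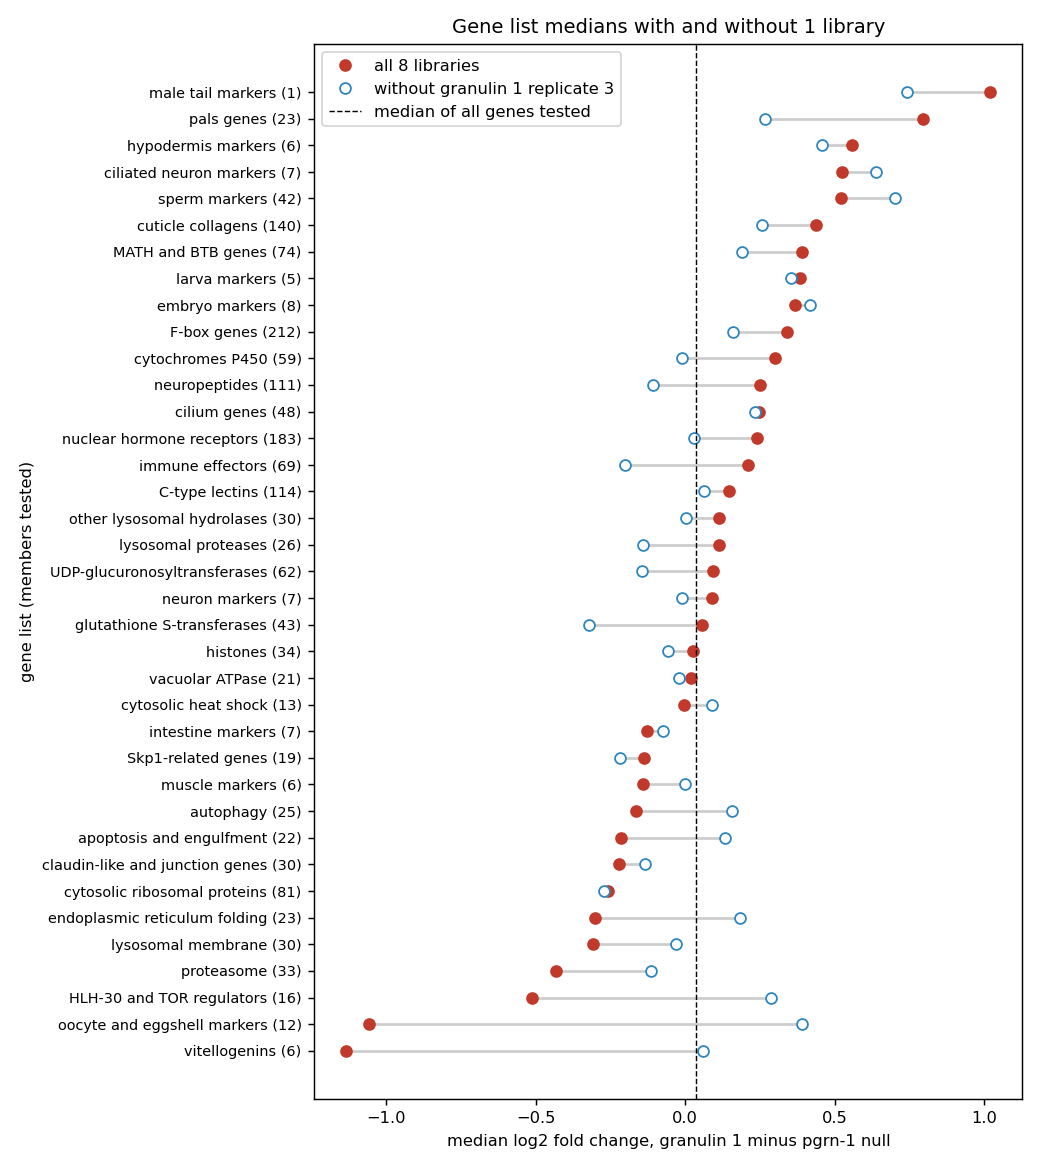
Median log2 fold change of granulin 1 minus the pgrn-1 null over the tested members of 37 gene lists (number in brackets), with all 8 libraries (filled points) and without granulin 1 replicate 3 (open points). The dashed line is the median of all 15737 genes, 0.04. Of the 37 medians, 17 change sign without that library, with the largest shifts in the oocyte, vitellogenin and HLH-30 lists.

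The tested genes whose strain means followed F11C3.1 most closely were ins-3, ttr-48, WBGene00005646, WBGene00010966 and C35A5.6. Their Pearson correlation of log2 level with F11C3.1 over the 5 strain means ran from 0.986 to 0.998. It is a description over 5 points, for genes selected by that correlation. Of the 5, WBGene00005646 was the one called against the null. That call is not used as support, because the gene passed the filter only through the granulin 1 libraries. ins-3, an insulin-like peptide gene, had a log2 fold change of 0.74 (adjusted p = 0.839), and ttr-48, a transthyretin-like gene, had 0.53 (adjusted p = 0.85).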

How the data were processed

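The authors deposited log2 CPM (depth-scaled counts) per gene for each of 20 libraries, 46778 genes each. Per the submitters' processing notes the tools were STAR, HTSeq, edgeR and limma on ce11. No versions, annotation or strand setting of the counting are stated there. Whole reads were recovered from the steps between low values: at least 99.99% of values above 0 were whole within 0.01 reads, and 8 values were not. Gene names and coordinates came from Ensembl release 115 (same build), which holds 46603 of the IDs.

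Because the deposited unit is log2, no count test was used. Genes with at least 0.177 CPM in 4 libraries and 15 reads in all were kept (15737). log2 CPM were recomputed with a prior count of 2 and trimmed-mean scaling (30% and 5% trims). limma 3.58.1 in R 4.3.3, with trend and robust moderation, was fitted to all 20 libraries with 1 mean per strain, so that the 5 strains share 1 estimate of spread. p-values were two-sided and adjusted over all genes tested (Benjamini-Hochberg, threshold 0.05). The prior count makes fold changes of low genes too small. The fit was also run on simulated counts with the same spread setting for every gene. No simulated library was given the length slope of granulin 1 replicate 3, so that run does not cover its effect. Intervals and floors cover counting error only.

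pgrn-1, unc-119 and hlh-30 were always to be named. Other named genes came mainly from the 20 called genes with the largest rise and the 6 that fell. Further ones were called genes with a name or list membership, the 2 members of a list with the smallest p, and near called neighbours. Not every gene that met these rules is described. The deposited tables give no sequences, and none are shown. Members and lists were chosen with earlier results of these data known. Replicates are numbered in accession order. Other scalings, filters, prior counts, models and left-out libraries were tried.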

Additional observations from a re-analysis of the deposited data

Results flagged for a closer look

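In 139 named genes, each read in both strains (278 groups of 4 libraries), 23 groups held 1 library whose gap to the nearest other was large against the group's range. Chance gives about 1 in 20. All values are CPM.

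Granulin 1 replicate 3 stood alone in 10 of them. It was high for pgrn-1 (1035 against 221 to 283), F11C3.1 (113 against 64.7 to 67.8), WBGene00018658 (10.6 against 6.82 to 7.10), T24H10.5 (4.12 against 1.51 to 1.71), WBGene00235353 (3.11 against 1.46 to 1.58) and F42A10.9 (8.65 against 1.59 to 2.10). It was low for hsp-110 (29.3 against 518 to 795), crn-4 (2.51 against 8.74 to 11), vit-5 (497 against 10367 to 19156) and vit-2 (659 against 14935 to 27143). Granulin 1 replicate 1 was low for F40D4.13 (0.242 against 0.372 to 0.401) and high for msp-10 (0.916 against 0.128 to 0.181).

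Among the null libraries, replicate 1 was low for F31E9.6 (0.478 against 0.809 to 0.886) and hsp-110 (233.9 against 685 to 819) and high for gst-2 (0.167 against 0.0199 to 0.0328). Null replicate 2 held the single read of K10G4.5 in its strain (0.0213 against 0). Null replicate 3 was low for Y102A5C.36 (0.199 against 0.404 to 0.459), Y6G8.2 (0.357 against 0.778 to 0.902), WBGene00019131 (2.32 against 3.41 to 3.66), cpr-8 (3.83 against 5.51 to 5.73) and atf-4 (16.8 against 28.8 to 30). Null replicate 4 was high for C10C6.3 (0.262 against 0.0426 to 0.0596) and cyp-33C9 (9.27 against 6.59 to 6.98).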

How the results depend on the processing

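The count of 74 called genes was 43 with library totals alone as the scale, 26 with the 8 libraries of the 2 strains alone (13693 genes tested), 132 with the length slope as a covariate, 667 with library weights (435 higher, 232 lower) and 39 with protein-coding genes alone. The weight estimation stopped before it converged. The 5 other scalings, filters and prior counts gave 59 to 74 and voom 66. With 1 library left out the count ran from 42 to 90; it was lowest without null replicate 2. Leaving out granulin 1 replicate 3 and null replicate 1 together gave 58, of which 53 were among the 74. pgrn-1 passed in each of these fits, and 15 of the 74 genes passed in all 20. No called gene reversed its direction in any of them. WBGene00005646 fell below the filter when any 1 granulin 1 library was left out, so it has no value there. No paired analysis was possible because the letters and numbers in the sample names do not match libraries between the 2 strains. Depth limits the 33 called genes with fewer than 50 reads in every null library.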
